A study of Mus musculus with 4 samples.

Results

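Genes of the TNF, interleukin 1 and inflammasome system were followed through bulk RNA sequencing of fat cells, taken by symbol from a table of 55487 genes, and all 10 sought were found. They are 5 cytokine genes (Tnf, Il6, Il1a, Il1b and Il18), 1 antagonist gene (Il1rn) and 4 inflammasome genes (Nlrp3, Pycard, Casp1 and Gsdmd). The tested animals are male mice of genotype CKO, with 2 libraries, and they are set against male control littermates labelled WT, also with 2 libraries. All were fed a standard diet, and RNA came from adipocytes isolated from perigonadal white fat, the visceral depot around the testis. The series title concerns BLIMP1, a transcriptional repressor encoded by Prdm1, and how macrophages adapt to nutrition. The sources used here name neither the deleted gene and Cre driver nor the age of the mice. They also do not state whether each library is 1 animal, so a p-value speaks only of the spread among the 4 libraries, which may be technical.

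TNF and the interleukin 1 cytokines are alarm signals made above all by macrophages, which sit between adipocytes and grow in number in obese fat. TNF is released by cleavage at the cell surface and acts on TNF receptors, and it is known for blunting insulin action in fat. IL-1β and IL-18 are made as inactive precursors. The sensor NLRP3 joins with the adaptor ASC, encoded by Pycard, to activate caspase-1, which cuts these precursors and also gasdermin D, whose fragment forms the pores through which they leave the cell. IL-1 receptor antagonist, encoded by Il1rn, occupies the IL-1 receptor without signalling.

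The stretch of DNA before the transcription start is shown for 4 of the cytokine genes, because Tnf, Il1b and Il1a had the same library order in these data while Il6 did not. RefSeq promoter windows on GRCm38.p6 matched 9 of the 10 genes, in 12 windows, and Gsdmd was not matched. The 250 bases before the start are printed 5′ to 3′ on the strand of the gene, at chr17:35202008-35202257 for Tnf, chr2:129371140-129371389 for Il1b, chr2:129309973-129310222 for Il1a and chr5:30012864-30013113 for Il6. Tnf, Il1b and Il1a lie on the minus strand and Il6 on the plus strand. Capitals mark matches to 4 motifs searched on both strands over the window of 300 bases: the κB form (GGGA, any 3 bases, TCC), the AP-1 form TGANTCA, the BLIMP1 and IRF form (GAAAG, any base, GAAA), and TATAAA.
Tnf: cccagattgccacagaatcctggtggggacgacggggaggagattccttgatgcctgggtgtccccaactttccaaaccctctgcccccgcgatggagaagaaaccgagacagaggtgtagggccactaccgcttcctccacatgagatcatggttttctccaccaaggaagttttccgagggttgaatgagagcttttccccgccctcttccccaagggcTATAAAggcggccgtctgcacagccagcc
Il1b: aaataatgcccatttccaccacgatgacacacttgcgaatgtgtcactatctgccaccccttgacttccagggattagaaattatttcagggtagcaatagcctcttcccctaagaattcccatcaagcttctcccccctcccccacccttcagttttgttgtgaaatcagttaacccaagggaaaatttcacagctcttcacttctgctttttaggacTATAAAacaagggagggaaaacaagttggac
Il1a: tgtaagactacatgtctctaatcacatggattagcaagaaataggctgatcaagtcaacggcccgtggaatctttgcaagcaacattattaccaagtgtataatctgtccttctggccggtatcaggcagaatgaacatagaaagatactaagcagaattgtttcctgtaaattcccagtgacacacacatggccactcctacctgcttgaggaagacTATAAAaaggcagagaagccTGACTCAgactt
Il6: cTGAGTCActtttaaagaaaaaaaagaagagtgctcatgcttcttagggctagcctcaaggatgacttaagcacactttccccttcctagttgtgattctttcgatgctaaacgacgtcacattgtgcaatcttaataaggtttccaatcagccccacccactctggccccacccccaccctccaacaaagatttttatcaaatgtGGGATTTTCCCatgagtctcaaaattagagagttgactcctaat

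TATAAA starts 29, 31 and 32 bases before the start of Tnf, Il1b and Il1a. On either strand 5 of the 12 windows held a match, against 13.6% of all 32851 windows. The other matches were the reverse letters TTTATA, 175 bases before the start of Il18 and at position 15 after a start of Il1rn. The κB form was found in 1 of the 12 windows, against 4.59% of all windows. That window was of Il6, with a pair of overlapping matches 44 and 43 bases before the start. For the other genes this says only that this form is not in the stretch searched. Other forms and more distant sites were not searched, and a tie of motifs to library order was not tested. The AP-1 form was found in 3 of the 12, in Il6 and Il1a as marked and in an upstream window of Il1rn, against 7.81% of all windows. The BLIMP1 and IRF form was found in none of the 12 windows of these genes and in 1.10% of all windows, which says only that these letters are not in these stretches.

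The 4 libraries held 24152081 to 26742547 reads. Values below are scaled reads, that is reads divided by a size factor of the library, and differences are CKO minus WT in log2(scaled reads + 1). Adipocyte markers were present in all libraries, with 1303690 and 936787 reads over 10 marker genes in CKO replicates 1 and 2 and 711141 and 220553 in WT replicates 1 and 2. Macrophage markers were also present in all of them. WT replicate 2 stood apart, with the fewest adipocyte and the most macrophage reads. Prdm1 had 152 and 350 scaled reads in CKO and 534 and 1193 in WT, a log2 difference of -1.79 (SE 0.59; limma adjusted p 0.459).

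The TNF and IL-1 cytokine genes had lower values in the CKO libraries than in the WT libraries, while Il6 did not. Macrophage markers were lower too, with both CKO libraries below both WT libraries for 12 of 14, against 26.8% of all genes tested. In bulk RNA fewer cells of a type and less RNA per cell cannot be told apart. No gene passed the adjusted threshold of 0.05 in limma, so each difference is given with its spread. Tnf (chromosome 17, 35199381 to 35202007), the gene of the cytokine TNF, had 279 and 519.9 scaled reads in CKO replicates 1 and 2, against 1435 and 5699.9 in WT replicates 1 and 2. Both CKO libraries were below both WT libraries, and the WT libraries themselves differed 3.97-fold. The CKO mean was 400 ± 170 and the WT mean 3567 ± 3016 (SD, n = 2 each), and the log2 difference was -2.90 (SE 0.73, 95% interval -4.79 to -1.02; limma adjusted p 0.459). It was -1.92 without WT replicate 2.

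Il1b (chromosome 2, 129364570 to 129371139), which encodes the secreted IL-1β, had 491 and 878 scaled reads in CKO and 1482 and 4627 in WT. The groups did not overlap, and the step between the nearest libraries, WT replicate 1 over CKO replicate 2, was 1.69-fold, smaller than the 3.12-fold between the WT libraries. The log2 difference was -1.99 (SE 0.63; limma adjusted p 0.459), and -1.18 without WT replicate 2. Il1a (chromosome 2, 129299610 to 129309972), whose product IL-1α is active without cleavage and is released from damaged cells, had 68.1 and 165 scaled reads in CKO and 335 and 557 in WT. Its groups did not overlap either, and here the CKO libraries were farther apart (2.42-fold) than the WT libraries (1.66-fold). The log2 difference was -2.02 (SE 0.55; limma adjusted p 0.459).

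Il18 (chromosome 9, 50554827 to 50581840), whose product drives interferon gamma from lymphocytes, was low throughout, with 104 and 69.7 scaled reads in CKO and 125 and 239.7 in WT. The log2 difference was -1.01 (SE 0.49, 95% interval -2.28 to 0.26; limma adjusted p 0.463), and CKO replicate 1 lay close under WT replicate 1. Without WT replicate 2 the log2 difference of Il18 was -0.55. Il6 (chromosome 5, 30013114 to 30019981), the gene of a cytokine that fat releases into the blood, had 100.2 and 118 scaled reads in CKO and 97.6 and 85.2 in WT. Its libraries were nearly level, and WT replicate 2, the highest library for the other cytokines, was the lowest here. The log2 difference of Il6 was 0.25 (SE 0.38, 95% interval -0.72 to 1.22; limma adjusted p 0.769), so a change of more than 1.22 in either direction on the log2 scale lies outside the interval. Leaving out single libraries gave 0.13 to 0.36, the lowest without CKO replicate 2.

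**Figure D1:**
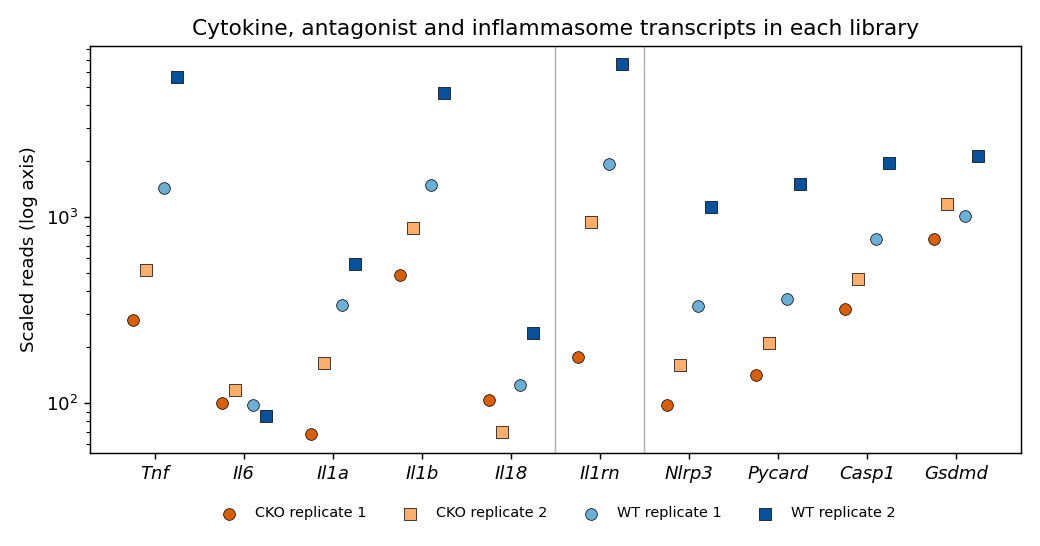
Scaled reads on a log axis for each of the 10 genes, with CKO libraries in orange and WT libraries in blue (circle: replicate 1, square: replicate 2); grey lines separate cytokines, antagonist and inflammasome genes. WT replicate 2 is the highest library for 9 of the 10 genes and the lowest for Il6.

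Il1rn (chromosome 2, 24336853 to 24351494), the antagonist gene, had the difference farthest from 0 with all 4 libraries and the widest spread between the CKO libraries. It had 176 and 943 scaled reads in CKO replicates 1 and 2, against 1938 and 6619.9 in WT replicates 1 and 2. The CKO libraries differed 5.35-fold and the WT libraries 3.42-fold. The log2 difference was -3.13 (SE 0.98, 95% interval -5.66 to -0.60; limma adjusted p 0.459), and it was -1.93 without CKO replicate 1 and -4.34 without CKO replicate 2. Without CKO replicate 1 the difference of Tnf, at -2.47, was the larger one.

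The ratio of antagonist to agonist reads can be compared between libraries, and scaling has no part in it. It does not tell which transcript is more abundant, as Il1rn has 5535 exon bases and Il1b 1907. Exon bases are counted over all annotated transcripts together, so values per kilobase compare the 2 genes only roughly. Per kilobase of exon, scaled reads of Il1rn were below those of Il1b in all 4 libraries. They were 31.9 and 170 against 257 and 460 in CKO, and 350 and 1196 against 777 and 2427 in WT. There were 0.359 and 1.07 reads of Il1rn for each read of Il1b in CKO replicates 1 and 2, and 1.31 and 1.43 in WT replicates 1 and 2. CKO replicate 1 was far below the other libraries, and CKO replicate 2 was nearer to the WT libraries than to it. For each read of Il1b there were 0.569 and 0.592 reads of Tnf in CKO and 0.968 and 1.23 in WT, so the pairs of libraries were apart in this ratio with little spread in CKO. These ratios were chosen after the values had been seen, and with 2 libraries against 2 an exact permutation test cannot go below a two-sided p of 0.333.

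The inflammasome genes also had lower values in CKO, apart from Gsdmd, whose groups overlapped. Nlrp3 (chromosome 11, 59541568 to 59566956), the sensor, had 97.2 and 161 scaled reads in CKO and 333 and 1138 in WT, a log2 difference of -2.29 (SE 0.67; limma adjusted p 0.459). Pycard (chromosome 7, 127989708 to 127993867), the adaptor, had 141 and 211 in CKO and 363 and 1515 in WT, a log2 difference of -2.10 (SE 0.73; limma adjusted p 0.459). The CKO libraries differed 1.66-fold for Nlrp3 and 1.49-fold for Pycard, and WT replicate 2 exceeded WT replicate 1 by 3.41-fold for Nlrp3 and 4.17-fold for Pycard. Without WT replicate 2 the log2 differences were -1.42 for Nlrp3 and -1.08 for Pycard.

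Casp1 (chromosome 9, 5298517 to 5307265), the protease, had 322 and 465 scaled reads in CKO and 765 and 1959.9 in WT, a log2 difference of -1.66 (SE 0.52; limma adjusted p 0.459), and -0.99 without WT replicate 2. Gsdmd (chromosome 15, 75862327 to 75867408), the pore former, had 758 and 1174 in CKO and 1012 and 2141 in WT. CKO replicate 2 was above WT replicate 1, and the log2 difference was -0.64 (SE 0.45, 95% interval -1.81 to 0.53; limma adjusted p 0.545). Without single libraries the log2 difference of Gsdmd ran from -1.19, without WT replicate 1, to -0.11, without WT replicate 2, and it was -0.34 without CKO replicate 1.

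As a group, 9 of the 10 genes had a negative difference, with a median of -2.01, where the median over all 16871 genes tested was 0.015. All 10 passed the filter on low values. Both CKO libraries lay below both WT libraries for 8 of the 10, as they did for 26.8% of all genes tested, and Il6 lay the other way, as 23.9% did. The libraries ran in the order WT replicate 2, WT replicate 1, CKO replicate 2, CKO replicate 1 for 7 of the 10, and for 17.0% of all genes tested. WT replicate 2 was the highest library for 9 of the 10 and for 40.0% of all genes tested. At an unadjusted p under 0.05 in limma, 7 of the 10 were lower (Tnf, Il1a, Il1b, Il1rn, Nlrp3, Casp1 and Pycard), against 7.26% of all genes tested. None of the 10 was higher at that p, against 3.35% of all genes tested. Fewer of the 10 were lower at that p without CKO replicate 1 or without CKO replicate 2, and fewer of all genes tested were too. The median difference of the 10 was -1.49 without CKO replicate 1 and -2.40 without CKO replicate 2. At the adjusted threshold 0 of the 10 passed, as did 0 of all genes tested, of which 1790 had an unadjusted p under 0.05, and voom weights also gave 0. Without WT replicate 1, where the spread of the single WT library left is taken to be that of CKO, 5.74% of all genes tested passed as lower and 5.04% as higher, and 5 of the 10 passed as lower (Tnf, Il1b, Nlrp3, Casp1 and Pycard, limma adjusted p 0.0433 each, the lowest over 14 alternatives that reached 1.00).

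**Figure D2:**
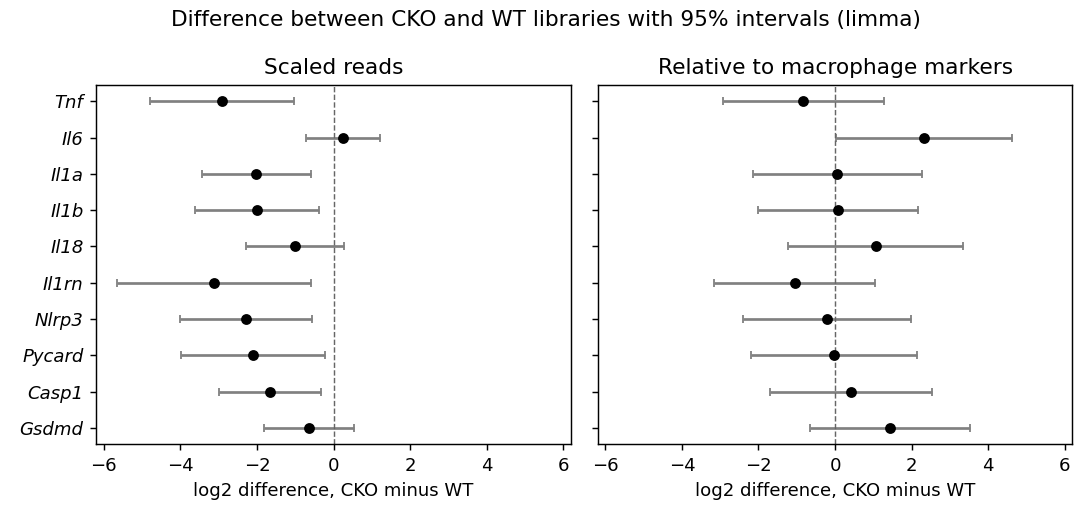
Log2 difference, CKO minus WT, for each gene with its 95% interval from limma, on scaled reads (left) and after the mean of the macrophage markers is taken off each library (right). On the left 7 intervals lie below 0, and on the right the differences run from -1.06 to 2.33.

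Levels of different genes need a length to be compared, so scaled reads were divided by the kilobases of annotated exon. This length joins the exons of all annotated transcripts of a gene. It can exceed that of the transcript present, so the order of genes is rough. Per kilobase, Tnf and Il1b led in WT replicate 2 with 3478 and 2427, above Casp1 with 1309, Il1rn with 1196 and Gsdmd with 901. Gsdmd led in CKO replicate 1 with 319, above Il1b with 257, Casp1 with 215 and Tnf with 171. Il1rn, at 31.9, was ninth of 10 in that library, and Nlrp3 was last with 24.0. In CKO replicate 2, Gsdmd had 494 per kilobase and Il1b 460, and in WT replicate 1 Tnf had 876 and Il1b 777, so these neighbours in the order differ by less than the libraries of a group do. Il6 ranged from 35.1 to 48.5 over the 4 libraries and was the lowest of the 10 in both WT libraries.

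Macrophage transcripts moved with these genes. Of 14 macrophage markers, 13 had a negative difference, with a median log2 difference of -2.29. For 12 of them both CKO libraries were below both WT libraries, as for 26.8% of all genes tested. Their summed scaled reads were 44751 and 91706 in CKO replicates 1 and 2 and 186973 and 554024 in WT replicates 1 and 2, and no marker was at 0. Mertk and Cd163 were the exceptions, with log2 differences of -0.029 and 0.62 and overlapping groups. The 10 markers of neutrophils, which also make IL-1β, summed to 381 and 396 scaled reads in CKO and 500.5 and 824 in WT, with the defining gene Ly6g at 3 reads in CKO replicate 1 and 0 elsewhere. S100a8 and Csf3r made up most of the sums in WT and in CKO replicate 2, but not in CKO replicate 1, where Elane equalled S100a8 at 71.1. The list was mixed in direction: 5 of the 10 were tested, with a median log2 difference of 2.21, and at an unadjusted p under 0.05 in limma S100a8 was lower (-1.79) and S100a9 and Camp were higher (2.21 and 3.06). The part of neutrophils in these results was not tested. Lymphocyte markers were low, at 69.1 and 66.1 summed scaled reads in CKO and 59.2 and 57.8 in WT for 8 T and NK cell genes, and at 127 and 154 in CKO and 133 and 190.3 in WT for 5 B cell genes. Other lists differed between the groups as well. Over all genes tested, 26.8% had both CKO libraries below both WT libraries and 23.9% had both above. All 6 endothelial markers had both CKO libraries above both WT libraries, with a median log2 difference of 1.22. Of 6 fibroblast markers 4 had both CKO libraries below, with a median of -0.84. Col3a1 and Dcn, the highest in level, were at -0.81 and 0.14, and Dcn and Pi16 (-0.13) had overlapping groups. Lum and Col1a1, genes of matrix proteins, were the most negative, at -1.90 and -1.74. Adipocyte markers had a median of 1.19, with 5 of 10 above in both CKO libraries and Lep, the leptin gene, below. The medians were 1.01 for 3 dendritic cell markers tested and -0.38 for 5 mesothelial markers, and the part of these cells in the results was not tested.

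Set against macrophage transcript, the median difference of the 10 genes was 0.069, in place of -2.01 on scaled reads. Il1b, Pycard and Il1a had overlapping groups, Tnf, Il1rn and Nlrp3 had lower values in CKO, and Il6, Il18, Gsdmd and Casp1 had higher ones. The mean log2 level of the 14 macrophage markers was taken off every gene in each library, centred so that the average over libraries was kept. Il1b then had log2 levels of 10.30 and 10.49 in CKO and 10.32 and 10.31 in WT, a difference of 0.081 (95% interval -2.02 to 2.18), which became 1.16 with Adgre1 and Cd68 alone as markers. The 4 libraries of Il1b were nearly level on this scale, although the interval, whose width is set by all genes, is wide. Pycard had 8.51 and 8.44 in CKO and 8.30 and 8.70 in WT, and Il1a had 7.47 and 8.09 in CKO and 8.18 and 7.26 in WT. Nlrp3 had 7.98 and 8.06 in CKO and 8.17 and 8.29 in WT, a difference of -0.21.

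Tnf and Il1rn stayed below on this scale. Tnf had 9.49 and 9.74 in CKO and 10.28 and 10.61 in WT, a difference of -0.83 (95% interval -2.93 to 1.27). Il1rn had 8.83 and 10.60 in CKO and 10.71 and 10.83 in WT, a difference of -1.06 (95% interval -3.15 to 1.04), nearly all of it in CKO replicate 1. Il6, Il18, Gsdmd and Casp1 were above, by 2.33, 1.06, 1.43 and 0.41. Gsdmd was close between the CKO libraries, at 10.93 and 10.91, against 9.77 and 9.20 in WT. On this scale 4 of the 10 had both CKO libraries above both WT libraries, where 90.5% of all genes tested did, and 3 of the 10 below, where 2.00% did. The median over all genes tested was 2.09 on this scale. None of the 10 passed the adjusted threshold in limma, against 2.22% of all genes tested higher and 0.00593% lower, and the lowest adjusted p of the 10 was 0.117, for Il6. Il6 alone of the 10 was higher at an unadjusted p under 0.05, as 42.3% of all genes tested were, and 0 of the 10 were lower, against 0.0830%. With Adgre1 and Cd68 alone in place of the 14 markers, the median of the 10 was 1.15 and Tnf, Il1rn, Nlrp3 and Pycard were at 0.25, 0.021, 0.86 and 1.05, with Il1b and Il1a at 1.16 and 1.13. The side on which the first 4 fall, and how level Il1b and Il1a are, therefore depend on the markers chosen.

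**Figure D3:**
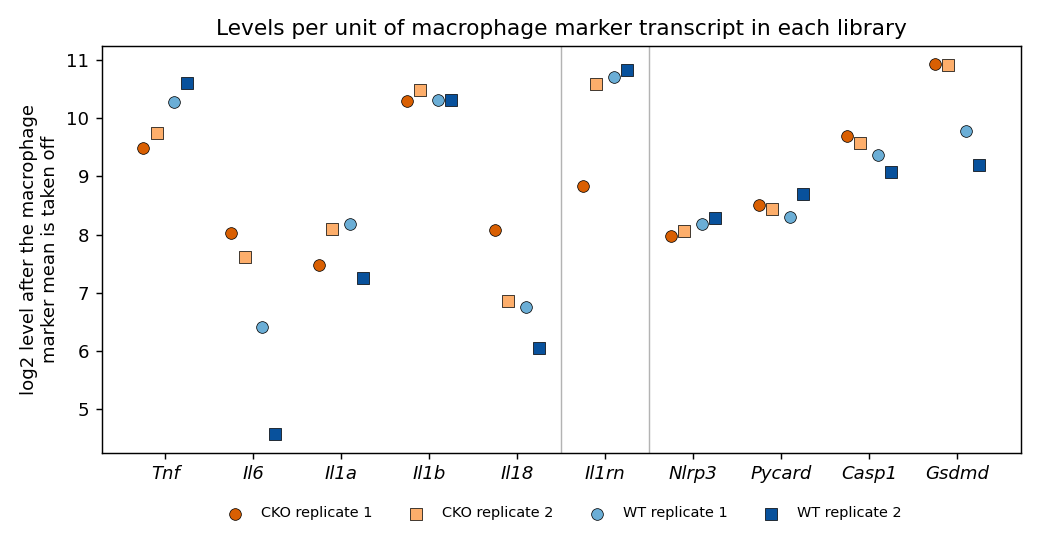
Log2 level of each gene after the mean of 14 macrophage markers is taken off, for the 4 libraries (colours and shapes as in the plot of scaled reads). Il1b lies between 10.30 and 10.49 in all libraries, Tnf is lower in CKO, and Il6 and Gsdmd are higher in CKO.

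The receptors and first adaptors of these cytokines were mixed in direction. Of 8 TNF and IL-6 receptor and adaptor genes, 0 passed the adjusted threshold in limma and 1 was lower at an unadjusted p under 0.05, with 4 of 8 below in both CKO libraries and 1 above, and a median log2 difference of -0.55. Over all genes tested 7.26% were lower and 3.35% higher at that p, and 26.8% and 23.9% were below and above in both CKO libraries. Tnfrsf1a, the TNF receptor of most cells, had 4769 and 5423 scaled reads in CKO and 4996 and 4299 in WT, a log2 difference of 0.13 (SE 0.26). Tnfrsf1b, the second TNF receptor and a gene of leukocytes, had 1035 and 2944 in CKO and 5247 and 13396.5 in WT, a log2 difference of -2.26 (SE 0.69). Il6st, the shared signalling chain of IL-6 receptors, and Adam17, the protease that sheds TNF, were at 0.64 and -1.17.

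Of 14 IL-1 family receptor, decoy and adaptor genes, 12 were tested and 0 passed the adjusted threshold in limma, with 1 lower and 1 higher at an unadjusted p under 0.05 and a median log2 difference of -0.11, where 7.26% and 3.35% of all genes tested were lower and higher at that p. Both CKO libraries were below both WT libraries for 4 of the 12 and above for 3, where 26.8% and 23.9% of all genes tested were. The 4 of highest level were Irak1, Irak2, Myd88 and Traf6, kinases and adaptors shared by IL-1 and Toll-like receptors. Their log2 differences were -0.10, 0.32, -0.11 and -0.0062, each with an SE of 0.23 to 0.26. The genes at an unadjusted p under 0.05 were Il1rl1, the IL-33 receptor (-2.01), and Il18bp, a secreted decoy that binds IL-18 (1.07), named here after their values were seen; a count of 1 each way is close to the share over all genes. Among 6 other ligand genes only Il33 was tested, with a log2 difference of 0.44 (SE 0.44), and the other 5, counted under their older symbols where needed, had at most 10 reads in a library.

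Of 20 other inflammasome genes, 18 were tested, 17 with a negative difference and a median of -1.69. None passed the adjusted threshold in limma, 10 were lower at an unadjusted p under 0.05 (7.26% of all genes tested), and 14 had both CKO libraries below both WT libraries (26.8% of all genes tested). The 4 of highest level did not share one direction. Txnip, a thioredoxin-binding protein that can engage NLRP3 and is abundant in fat, had 55845 and 61980 scaled reads in CKO and 45655 and 17540 in WT, a log2 difference of 1.06 (SE 0.68). Nek7, the kinase that NLRP3 needs, and Casp8 were at -0.18 (SE 0.25) and -0.083 (SE 0.29). Ninj1, which ruptures the membrane after pore formation, was at -1.18 (SE 0.45).

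**Figure D4:**
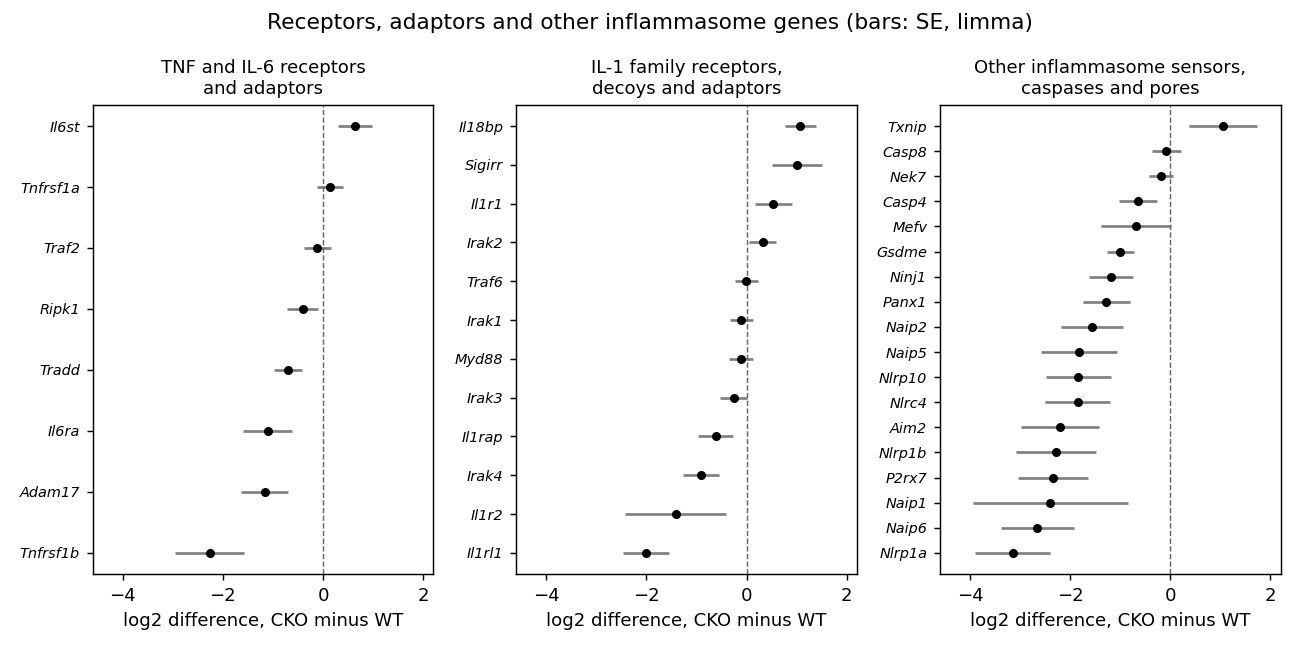
Log2 difference, CKO minus WT, with SE from limma for the tested genes of 3 lists. Most sensors lie left of 0 in the right panel, while Irak1, Myd88 and Traf6 in the middle panel lie close to 0.

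The genes whose levels ran most like Tnf and Il1b over the 4 libraries were found by the root mean square distance between gene-centred log2 levels, among 13231 named genes that passed the filter. For Tnf they were Rgs18, Sla, Tnfrsf11a, Smpd3 and Adgre1, at distances of 0.050 to 0.101 log2 units. Tnfrsf11a, which encodes the receptor RANK, had 276 and 545 scaled reads in CKO and 1337 and 5722 in WT, and Adgre1, a macrophage surface receptor gene, had 1386 and 2813 in CKO and 8381 and 33520.1 in WT. For Il1b they were Efhd2, Fam129b, Arap1, Nfatc2 and Man1c1, at distances of 0.033 to 0.057, while Adgre1 was at 0.563 from Il1b. Over 4 libraries such distances describe order and size alone.

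Some of the 10 genes share DNA with a neighbour, and the sources used here do not say whether counting used strand. Exons of Il1a, Il1b and Pycard overlap Gm14023, Il1bos and Gm45205 on the opposite strand. Il1bos had 0 and 1 reads in CKO and 1 and 7 in WT, Gm14023 had 11 and 15 in CKO and 35 and 25 in WT, and Gm45205 had 20 and 24 in CKO and 21 and 8 in WT. Each was well below its partner in all libraries.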

How the data were processed

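The authors deposited 1 table of log2 values, with a column for each of 4 libraries, for adipocyte RNA purified with TRIzol and an RNeasy kit, per the labels' protocols. Alignment used STAR 2.7.5c and the build GRCm38.p6, per the submitters' processing notes. The sources used here do not name the counting tool or annotation. The deposited log2 values are log2(reads + 1) without scaling: 2 to their power, minus 1, was whole within 0.01 for 100% of values. Reads were recovered by rounding.

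Size factors were medians of ratios over 19847 genes (0.998 and 1.10 for CKO, 0.963 and 0.951 for WT). Genes whose deposited log2 values averaged 3 or more were fitted on group in limma 3.58.1 (R 4.3.3, eBayes with a trend, two-sided, pseudocount 1, Benjamini-Hochberg over 16871 genes). limma was kept because the deposited unit is log2, and voom weights on the recovered reads were an alternative. The macrophage fit had no gene-specific variance left to estimate (infinite prior degrees of freedom), so its intervals follow the trend over all genes. The fit was also run on simulated reads, with a fixed spread or the spread measured for each gene. Outcomes are not given here, and no result about these libraries rests on them.

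Coordinates and exon lengths are from GENCODE M21 on GRCm38, to which 9 of the 10 IDs matched with their version and Casp1 without it. The genes, lists, motifs and tests were chosen with earlier results of these data known. Named by rule beside the 10 genes were Prdm1, the 4 genes of highest mean level in each pathway list, and the 5 nearest to Tnf and Il1b. Marker genes named from the cell type lists, and Il1rl1 and Il18bp, were picked with their values known. Alternatives were other filters, scalings, pseudocounts, variance settings, weights and markers, and each library left out.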

Additional observations from a re-analysis of the deposited data

How the results depend on the processing

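No paired analysis was possible because the labels name no pairing of CKO with WT libraries. The replicate numbers used here follow the order of the samples within each group and pair nothing. On scaled reads, all 10 genes kept their direction in 14 alternatives, with limma adjusted p of 0.0433 to 1.00 over them. Leaving out 1 library at a time, genes past the adjusted threshold ran from 0 to 969 lower and 0 to 851 higher, the 10 genes past it from 0 to 5, and those lower at an unadjusted p under 0.05 from 1 to 9. The highest of each range came without WT replicate 1. That fit takes the spread of the single WT library left to be that of CKO. More of all genes tested were lower at that unadjusted p in it than with all libraries. Fewer were lower in each other fit without a library, so the count of the 10 genes moved with the share over all genes. The median of the 10 ran from -2.61 to -1.13.

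Relative to macrophage markers, the median ran from -0.0017 to 0.30 without single libraries and was 1.15 with Adgre1 and Cd68 alone. Genes higher at an unadjusted p under 0.05 ran from 0 to 2, as did those past the adjusted threshold (Il6 and Gsdmd, without WT replicate 1, where 84.8% of all genes tested passed as higher, so this is no result about them). Signs near 0 turned. Without single libraries, Il1a ran from -0.40 to 0.52, Il1b from -0.016 to 0.18 and Pycard from -0.22 to 0.18. With a pseudocount of 10 Pycard was at 0.017. With Adgre1 and Cd68 alone Il1rn, Nlrp3, Pycard and Tnf were at 0.021, 0.86, 1.05 and 0.25, and Il1a and Il1b at 1.13 and 1.16. The cause was not tested. A fit without a trend was added after the data had been seen. Il18 and Il6 rest on few reads, 77 to 228 and 81 to 130 in a library.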

Other observations

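Reads of the cytokine genes for each read of Adgre1, a macrophage surface receptor gene, were set side by side after the values had been seen, with no test. Tnf had 0.202 and 0.185 reads per Adgre1 read in CKO replicates 1 and 2 and 0.171 and 0.170 in WT replicates 1 and 2. The range was narrow over libraries whose Tnf reads ran from 279 to 5421. Both CKO libraries were above both WT libraries in this ratio, while against the 14 macrophage markers Tnf was lower in CKO. Il1b had 0.354 and 0.312 in CKO and 0.177 and 0.138 in WT, with the groups apart. Il1rn had 0.127 and 0.335 in CKO and 0.231 and 0.197 in WT, with the CKO libraries on either side of the WT libraries.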
